A study of Homo sapiens with 8 samples.

Results

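The genes described here encode proteins that mesenchymal cells lay down between cells or carry on their surface. They are POSTN (periostin), LUM (lumican), DCN (decorin), BGN (biglycan), MGP (matrix Gla protein), FN1 (fibronectin), SPARC (osteonectin), FBN1 (fibrillin-1), VCAN (versican) and THY1 (the surface antigen CD90). They were taken as a named set of 10 out of 19775 genes with a probe set of their own, using the probe sets that name only that gene. The set was chosen by earlier results of these same arrays, namely signals of these genes in embryoid bodies with and without ethanol. Ethanol values in embryoid bodies are therefore given as a description, with nothing read from their p-values.

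RNA of human embryonic stem cells, labelled as the established line H9 and kept in mTeSR medium, was measured on 8 expression arrays in 4 groups of 2. The groups were embryoid bodies with 20 mM ethanol for 24 h, embryoid bodies with 0 mM, undifferentiated cells with 20 mM and undifferentiated cells with 0 mM. Embryoid bodies are aggregates in which pluripotent cells differentiate into several lineages at once. Nothing in the labels tells whether the duplicates are separate cultures, and the p-values cover the spread between these arrays alone.

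The interstitial matrix is a mesh of fibres and gels that mesenchymal cells secrete. Fibronectin and fibrillin form its first fibres, small proteoglycans with leucine-rich repeats (decorin, biglycan, lumican) sit on collagen fibrils and set their width and spacing, and versican binds hyaluronan into a hydrated gel. Periostin and SPARC are matricellular proteins, which tune how cells bind the matrix rather than bearing load. In differentiating pluripotent cultures these genes are commonly read as signs of mesoderm-derived mesenchyme, although fibronectin and SPARC are also made by endoderm.

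Values are array signals as deposited, with a trimmed mean of about 500 on every array, and changes are given on the log2 scale with the standard error of the fit. The median signal was 102.3 on both arrays of embryoid bodies with 20 mM ethanol, 83.2 and 85.1 with 0 mM, 74.1 and 79.4 in undifferentiated cells with 20 mM, and 69.2 and 70.8 with 0 mM. The Pearson correlation was 0.981 to 0.988 between replicate arrays and 0.872 to 0.894 across the stages. The pluripotency factor NANOG, a marker of the labelled cell type, had signals of 3715 to 4677 in embryoid bodies and 7943 to 8511 in undifferentiated cells. Transcripts that tell lines apart did not match the named line on 4 of the 8 arrays, and these 4 made up 1 of the 2 stages. A difference between stages and a difference between lines cannot be told apart in these data, and a bulk array does not separate more cells of a type from more RNA per cell. Comparisons of ethanol within a stage do not cross this boundary, but the difference of the ethanol changes between stages does.

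Promoters of 3 of the genes are shown for the sequence behind them. RefSeq promoters (GRCh38.p14, 250 bases before to 50 after the gene's start) were matched for 6 of the 10 genes, and LUM, DCN, MGP and THY1 are named only. The 190 bases before the start are printed 5′ to 3′ for POSTN, whose signal differed most with ethanol in embryoid bodies among these 6, and for FN1 and SPARC, whose main signals differed little. Capitals mark matches, on either strand, to TATAAA (the TATA box), CCAAT, TGACGTCA (the cyclic AMP response element), TGANTCA (AP-1) and GGAATG (TEAD).
POSTN, chr13:37598769-37598958, minus strand: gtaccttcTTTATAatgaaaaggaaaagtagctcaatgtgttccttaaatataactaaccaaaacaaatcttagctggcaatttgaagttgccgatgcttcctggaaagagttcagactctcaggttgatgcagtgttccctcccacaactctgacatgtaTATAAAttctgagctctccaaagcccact
FN1, chr2:215436069-215436258, minus strand: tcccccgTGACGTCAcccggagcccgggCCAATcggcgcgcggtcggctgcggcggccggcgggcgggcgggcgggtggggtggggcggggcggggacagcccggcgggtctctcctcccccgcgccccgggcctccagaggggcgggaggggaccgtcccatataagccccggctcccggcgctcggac
SPARC, chr5:151686916-151687105, minus strand: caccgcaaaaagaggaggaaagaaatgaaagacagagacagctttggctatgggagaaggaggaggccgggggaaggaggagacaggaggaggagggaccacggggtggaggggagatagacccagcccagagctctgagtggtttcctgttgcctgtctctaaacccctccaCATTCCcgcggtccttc

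The POSTN stretch is the poorest in G and C, at 39.5% of bases, against 82.1% in FN1 and 57.9% in SPARC. In POSTN a TATA match begins 29 bases before the start. Over the full windows, TATAAA was found in POSTN alone of the 6 genes and in 11.5% of 35116 promoters, TGANTCA in POSTN alone and in 7.71%, and TGACGTCA in FN1 alone and in 1.85%. CCAAT was found in FN1 alone and in 34.6%, and GGAATG in SPARC and FBN1 and in 14%. No motif was shared by more than 2 of the 6 genes. Matches were to these exact letters, so near variants, such as tataag towards the end of the printed FN1 stretch, were not counted.

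Between the stages, signals of most of these genes were higher in embryoid bodies. Without ethanol, POSTN, LUM, DCN, BGN, FN1, SPARC, FBN1 and VCAN (8 of the 10) rose in embryoid bodies over undifferentiated cells and THY1 fell, past the threshold (limma, adjusted p under 0.05 over 14079 genes), and the same held with 20 mM ethanol in both groups. MGP passed the filter on dim signals through embryoid bodies alone, so the filter favoured its call, which is not counted. Of all genes tested, 28.0% rose and 24.7% fell at 0 mM, together 52.7%, and 59.2% had an unadjusted p under 0.05. At 20 mM these shares were 29.2% and 27.1%, together 56.3%, and 61.9%. The stage comparisons share the embryoid body arrays on which the choice of genes drew, so the counts and the values by gene are a description, and nothing is read from their share against all genes.

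For each of the 9 genes with signal above the array median in both stages, the arrays of the stages did not overlap at either dose, which held for 40.3% of all genes in the higher and 38.1% in the lower direction at 0 mM. At 20 mM these shares were 39.6% and 37.6%. Of the 31 probe sets of the 10 genes that passed the filter, 10 did so through embryoid bodies alone, and the filter favoured their calls too. The other 21 were also called, higher except for the 3 sets of THY1. Of all probe sets, 25.7% were called higher and 20.5% lower at 0 mM, and 27.6% and 22.8% at 20 mM.

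**Figure D1:**
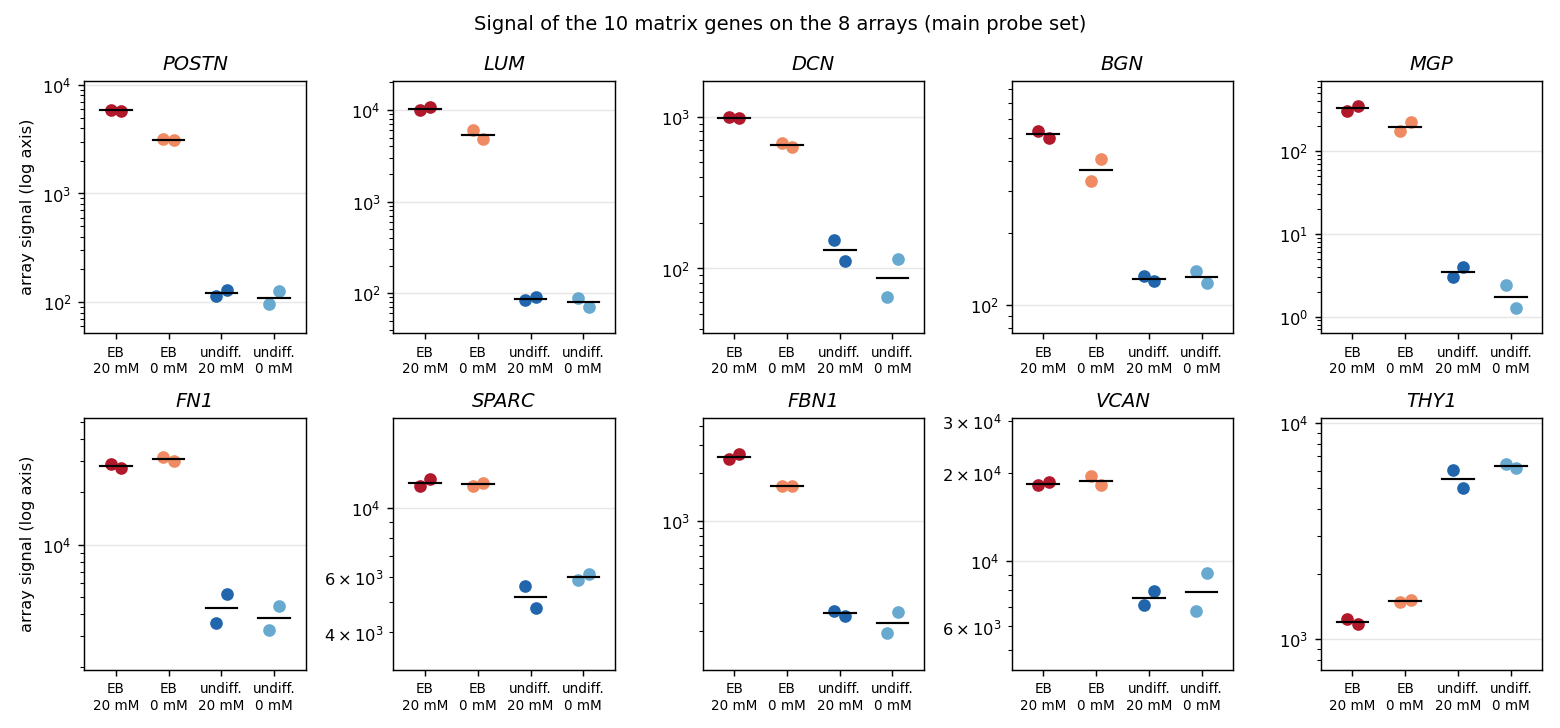
Array signal (log axis, a range of its own in each panel) of the main probe set of each gene in embryoid bodies (EB) and undifferentiated cells with 20 and 0 mM ethanol; points are the 2 arrays and lines their geometric mean. Embryoid body arrays lie above undifferentiated arrays except in THY1, where they lie below, and the MGP arrays of undifferentiated cells are under the array median.

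Periostin and lumican had among the largest stage differences. POSTN signals were 5888 and 5754 in embryoid bodies with 20 mM ethanol, 3162 and 3090 with 0 mM, 114.8 and 128.8 in undifferentiated cells with 20 mM, and 95.5 and 125.9 with 0 mM. Each embryoid body array was far above each undifferentiated array, and within embryoid bodies the doses did not overlap. POSTN was 28.5-fold higher in embryoid bodies at 0 mM (log2 change 4.83 ± 0.14, adjusted p = 2.1e-05 by limma) and 47.9-fold higher at 20 mM (5.58 ± 0.14, adjusted p = 1.27e-05).

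LUM signals were 10000 and 10720 in embryoid bodies with 20 mM ethanol, 6026 and 4786 with 0 mM, 83.18 and 91.2 in undifferentiated cells with 20 mM, and 89.13 and 70.79 with 0 mM. The undifferentiated values lie close to the array medians. LUM was 67.6-fold higher in embryoid bodies at 0 mM (log2 change 6.08 ± 0.16, adjusted p = 1.83e-05 by limma) and 119-fold higher at 20 mM (6.89 ± 0.16, adjusted p = 1.08e-05). Its other probe set was under the array median on the undifferentiated arrays and reached at most 323.6 in embryoid bodies.

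By their main probe sets, the remaining small proteoglycans rose less. DCN signals were 1000 and 977.2 in embryoid bodies with 20 mM ethanol, 676.1 and 631 with 0 mM, 154.9 and 112.2 in undifferentiated cells with 20 mM, and 64.57 and 114.8 with 0 mM. The embryoid body doses did not overlap, whereas the undifferentiated doses did. DCN, a binder of collagen and of TGF-beta, was 7.59-fold higher in embryoid bodies at 0 mM (2.92 ± 0.29, adjusted p = 0.000708 by limma). The other DCN sets that passed the filter were under the array median on the undifferentiated arrays. At 0 mM they were at least 4.95-, 5.75- and 1.78-fold higher in embryoid bodies, beside at least 2.26-fold for the second LUM set.

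BGN, a close relative of decorin, had signals of 537 and 501.2 in embryoid bodies with 20 mM ethanol, 331.1 and 407.4 with 0 mM, 131.8 and 125.9 in undifferentiated cells with 20 mM, and 138 and 123 with 0 mM. The change was 2.82-fold at 0 mM (1.49 ± 0.12, adjusted p = 0.000398 by limma) and 4.03-fold at 20 mM. Both BGN probe sets that passed the filter are of the _x_at kind, which may also bind related transcripts. The third, of another kind, stayed at or under 81.28 on all arrays. The main sets of DCN, FN1 and VCAN are also of the _x_at kind.

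MGP, an inhibitor of calcification in cartilage and vessel walls, was far under the array median in undifferentiated cells. Its signals were 309 and 354.8 in embryoid bodies with 20 mM ethanol, 173.8 and 223.9 with 0 mM, 3.02 and 3.98 in undifferentiated cells with 20 mM, and 2.40 and 1.26 with 0 mM. It passed the filter through embryoid bodies alone, which favoured a difference between stages. Against the array medians as a floor, MGP was at least 2.82-fold higher in embryoid bodies at 0 mM and at least 4.32-fold higher at 20 mM.

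Both fibre-forming genes rose. FN1 signals were 28840 and 27540 in embryoid bodies with 20 mM ethanol, 31620 and 30200 with 0 mM, 3548 and 5248 in undifferentiated cells with 20 mM, and 3236 and 4467 with 0 mM. The embryoid body values are close to the highest signal of any probe set on an array, which ran from 31623 to 40738. FN1 was 8.13-fold higher in embryoid bodies at 0 mM (3.02 ± 0.23, adjusted p = 0.0003 by limma) and 6.53-fold at 20 mM. One of its dimmer probe sets, at 660.7 to 977.2 in embryoid bodies and 16.6 to 32.36 in undifferentiated cells, was under the array median there, so no exact change is given.

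FBN1 signals were 2455 and 2630 in embryoid bodies with 20 mM ethanol, 1660 on both arrays with 0 mM, 269.2 and 251.2 in undifferentiated cells with 20 mM, and 195 and 263 with 0 mM. The embryoid body doses did not overlap. FBN1 was 7.33-fold higher in embryoid bodies at 0 mM (2.87 ± 0.15, adjusted p = 9.7e-05 by limma) and 9.77-fold at 20 mM (3.29 ± 0.15).

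VCAN and SPARC had the smallest rises at 0 mM of the 8 genes. VCAN signals were 18200 and 18620 in embryoid bodies with 20 mM ethanol, 19500 and 18200 with 0 mM, 7079 and 7943 in undifferentiated cells with 20 mM, and 6761 and 9120 with 0 mM. The change was 2.40-fold at 0 mM (1.26 ± 0.15, adjusted p = 0.00139 by limma), and the 5 probe sets of VCAN gave log2 changes of 1.26 to 1.91. SPARC signals were 11750 and 12300 in embryoid bodies with 20 mM ethanol, 11750 and 12020 with 0 mM, 5623 and 4786 in undifferentiated cells with 20 mM, and 5888 and 6166 with 0 mM. SPARC was 1.97-fold higher at 0 mM (0.98 ± 0.10, adjusted p = 0.0007 by limma) and 2.32-fold at 20 mM.

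THY1 ran the other way. It is a lipid-anchored glycoprotein of fibroblasts and neurons that human pluripotent stem cells also carry, and it is not a matrix protein. Its signals were 1230 and 1175 in embryoid bodies with 20 mM ethanol, 1479 and 1514 with 0 mM, 6026 and 5012 in undifferentiated cells with 20 mM, and 6457 and 6166 with 0 mM. All embryoid body arrays were below all undifferentiated arrays. THY1 was 4.22-fold lower in embryoid bodies at 0 mM (log2 change -2.08 ± 0.10, adjusted p = 9.17e-05 by limma) and 4.57-fold lower at 20 mM. The label of mesenchymal matrix thus fits the other 9 genes by their function, while THY1 was higher in undifferentiated cells.

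**Figure D2:**
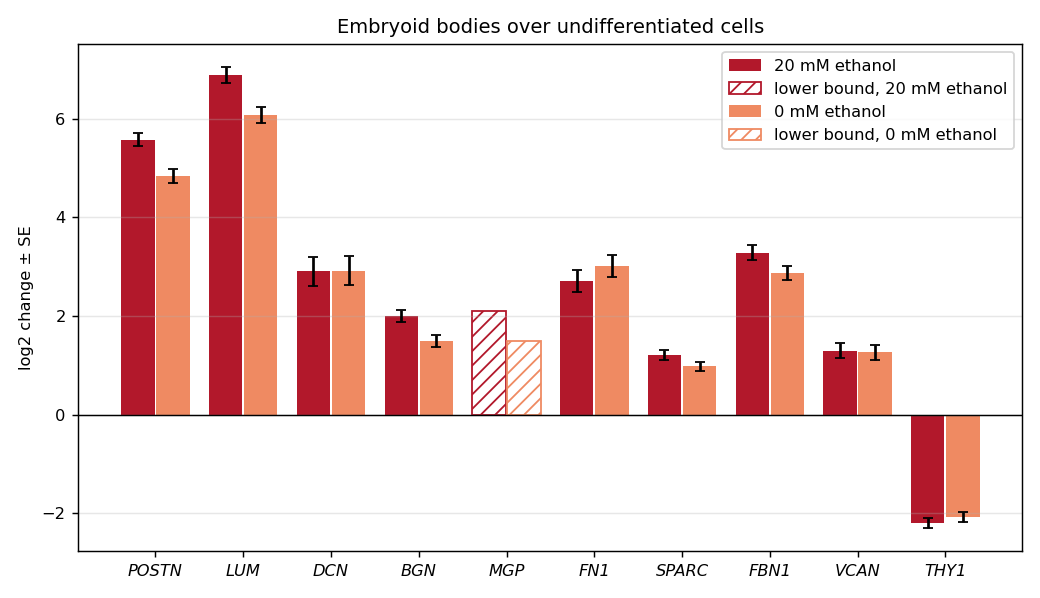
Fitted log2 change of embryoid bodies over undifferentiated cells for each gene, with 20 mM (dark red) and 0 mM ethanol (orange); bars start at 0 and error bars are standard errors of the fit over 8 arrays. Hatched bars of MGP are lower bounds without error, against the array medians of undifferentiated cells. LUM and POSTN have the tallest filled bars and THY1 is the gene below 0.

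In embryoid bodies, 20 mM ethanol went with higher values of 6 of these genes and with little difference in 3 others. LUM was 1.93-fold higher (log2 change 0.95 ± 0.16), POSTN 1.86-fold (0.90 ± 0.14), MGP 1.68-fold (0.75 ± 0.33), FBN1 1.53-fold (0.61 ± 0.15), DCN 1.51-fold (0.60 ± 0.29) and BGN 1.41-fold (0.50 ± 0.12). For these 6 genes both ethanol arrays lay above both arrays without ethanol, and for FN1 and THY1 both lay below. Of all genes tested, 29.4% were separated in the higher and 28.1% in the lower direction. FN1 was at -0.13 ± 0.23, SPARC at 0.02 ± 0.10 and VCAN at -0.03 ± 0.15, and THY1 was 1.24-fold lower (-0.32 ± 0.10).

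None of the 10 passed limma's adjusted threshold in this contrast, which 0.0710% of all genes did, 0.0426% higher and 0.0284% lower. With a trended and robust variance 3 did, beside 959 of all 14079 genes tested. In the main fit 5 had an unadjusted p under 0.05 (POSTN, LUM, BGN, FBN1 and THY1), against 22.3% of all genes. The median over the 10 genes was 0.55 and over all genes 0.02. Ethanol arrays of embryoid bodies also had the highest array medians. Centring each array on its median moved the median of all genes to -0.27. It left POSTN at 0.61, LUM at 0.66, MGP at 0.47, FBN1 at 0.33, DCN at 0.32 and BGN at 0.22, put THY1 at -0.60, and turned SPARC to -0.27. Cyclic loess left MGP at 0.34. Quantile normalization turned FN1 to 0.02 and VCAN to 0.11.

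**Figure D3:**
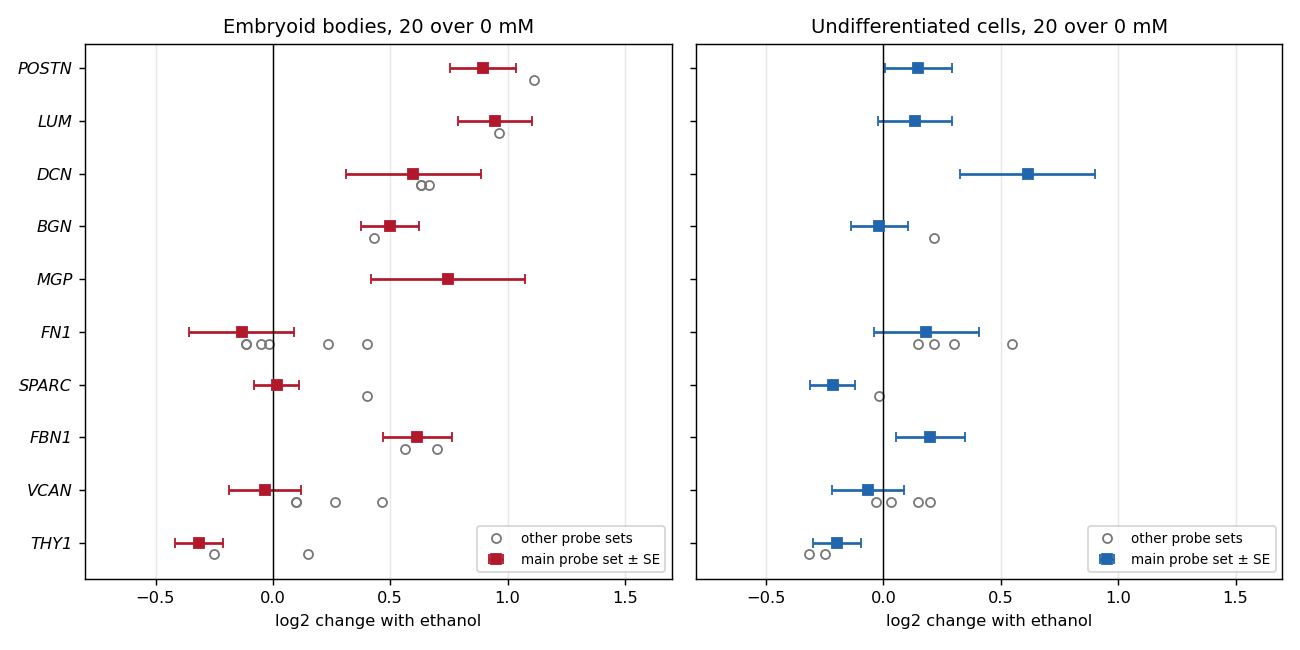
Log2 change with 20 over 0 mM ethanol in embryoid bodies (left) and undifferentiated cells (right); squares are the main probe set of each gene with its standard error, open circles the gene's other probe sets that passed the filter. In embryoid bodies all probe sets of POSTN, LUM, DCN, BGN, MGP and FBN1 lie above 0, while those of FN1, VCAN and THY1 lie on both sides and both of SPARC lie above 0. Probe sets under the array median in undifferentiated cells, MGP among them, are left out on the right.

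A second look at the same RNA came from the other probe sets. The second POSTN set had signals of 871 and 831.8 in embryoid bodies with ethanol and 426.6 and 363.1 without, a log2 change of 1.11 ± 0.25. The second LUM set gave 0.96 ± 0.32 and the second BGN set 0.43 ± 0.14. The 3 other DCN sets gave 0.63 ± 0.21, 0.63 ± 0.86 and 0.66 ± 0.29, and the 2 other FBN1 sets 0.57 ± 0.79 and 0.70 ± 0.28. For these genes the sets thus had the same sign and similar size. For the DCN set at ± 0.86 and the FBN1 set at ± 0.79 the error exceeds the change. Of the 7 DCN sets, 3 did not pass the filter, as did 2 of the 4 POSTN sets, 1 of 3 BGN sets and 1 of 2 MGP sets.

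Probe sets of SPARC, VCAN, FN1 and THY1 did not give the same change. The second SPARC set had signals of 5129 and 5248 in embryoid bodies with ethanol and 3981 and 3890 without, a log2 change of 0.40 ± 0.10, where the main set at about 12000 gave 0.02. Among VCAN sets, the one at 9772 and 10470 with ethanol and 7762 and 6918 without gave 0.47 ± 0.14, whereas the sets with mean embryoid body signals of 16000 and 18600 gave 0.10 and -0.03. The 4 FN1 sets with mean signals of 23900 to 29500 gave -0.13 to -0.02, and its 3 dimmer sets -0.12, 0.23 and 0.40. THY1 sets gave -0.32, -0.25 and 0.15. Whether high signals hid differences in FN1, SPARC and VCAN was not tested. The main sets of SPARC, at about 12000, and VCAN, at 18600, lay under the highest signals on an array, 31623 to 40738.

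**Figure D4:**
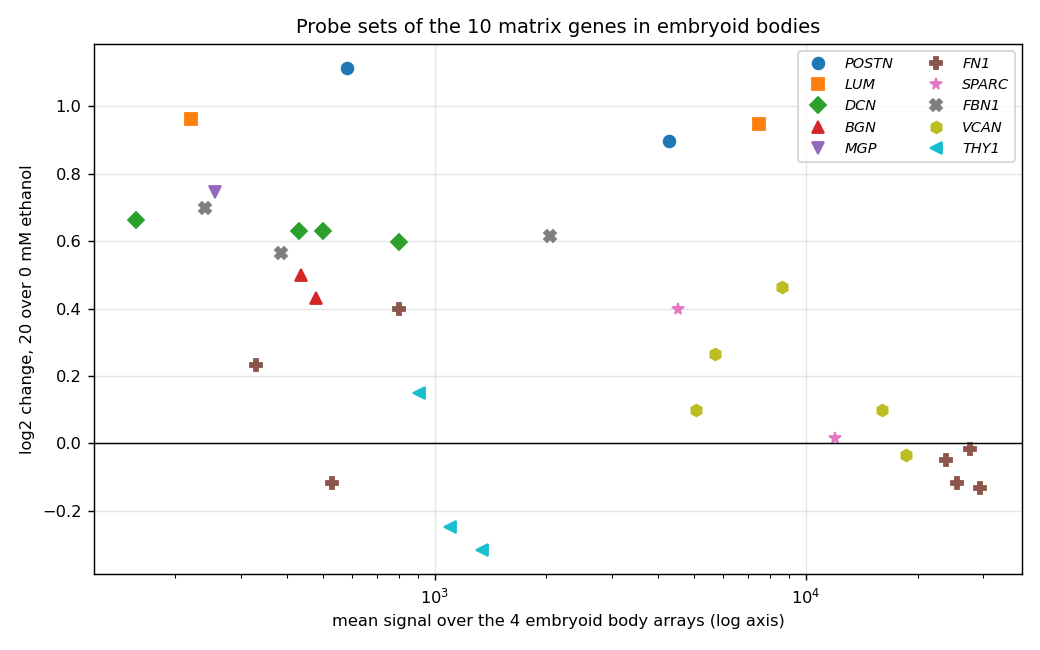
Log2 change with ethanol in embryoid bodies against the mean signal over the 4 embryoid body arrays (log axis) for the 31 probe sets that passed the filter; each symbol is a gene. The sets of POSTN, LUM, DCN, BGN, MGP and FBN1 lie between 0.43 and 1.11 at signals of 157 to 7460, and the 7 sets at 12000 or more, of SPARC, VCAN and FN1, lie between -0.13 and 0.10. The dimmer sets of SPARC, VCAN and FN1 and all sets of THY1 lie between -0.32 and 0.47 at signals of 331 to 8610.

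In undifferentiated cells the same dose gave no call among the 10 genes, and 0.00710% of all genes were called either way. MGP was the 1 gene with an unadjusted p under 0.05, against 7.00% of all genes, but its signals of 3.02 and 3.98 with ethanol and 2.40 and 1.26 without are all below the median of their arrays. Its fold is left out. A trended and robust variance also called none. The log2 change was 0.15 ± 0.14 for POSTN (adjusted p = 0.913 by limma) and 0.13 ± 0.16 for LUM (adjusted p = 0.939). For DCN it was 0.61 ± 0.29 (adjusted p = 0.752), with overlapping arrays. BGN, FN1, FBN1 and VCAN lay between -0.07 and 0.20 and also overlapped. SPARC (-0.22 ± 0.10) and THY1 (-0.20 ± 0.10) had both ethanol arrays below both others, as 12.1% of all genes did, with adjusted p = 0.721 and 0.787 by limma. With centred arrays LUM lay at 0.00.

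Set side by side, the ethanol change was larger in embryoid bodies than in undifferentiated cells by a log2 value of 0.81 ± 0.22 for LUM, 0.75 ± 0.20 for POSTN, 0.51 ± 0.17 for BGN and 0.42 ± 0.21 for FBN1. For DCN it was -0.02 ± 0.41, and for MGP no value is given, since its undifferentiated signals were under the array median. None of the 10 was called by limma, nor was any other gene (0%), a trended and robust variance also called none of the 10, and 3 (POSTN, LUM and BGN) had an unadjusted p under 0.05, against 13.0% of all genes. This contrast shares the embryoid body arrays on which the choice of genes drew and is a description. It also sets the stages against each other, so stage and line cannot be told apart in it. No such difference is given for the second sets of POSTN and LUM, whose undifferentiated signals were dim.

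The order of the 4 groups differed among the genes. POSTN, LUM, DCN and FBN1 had their highest level in embryoid bodies with ethanol, then embryoid bodies without, then undifferentiated cells with and without ethanol, whose arrays overlapped. MGP had the same first groups, and its undifferentiated groups, both under the array median, have no order. BGN had the same first 2 groups, with the undifferentiated groups indistinguishable at 131.8 and 125.9 with ethanol and 138 and 123 without. For SPARC and VCAN the embryoid body groups overlapped, as did the undifferentiated groups of VCAN. FN1 was higher in both embryoid body groups, and its undifferentiated groups overlapped. THY1 was highest in undifferentiated cells without ethanol and lowest in embryoid bodies with it.

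Position in the genome was not used to choose the genes, but values are given here only for neighbours in the matrix gene lists described below. These lists were chosen with earlier results known, and the other neighbours are not described. In the RefSeq order of protein-coding genes (GRCh38.p14), LUM and DCN are direct neighbours, next to KERA (keratocan) and then EPYC (epiphycan), all of them small leucine-rich proteoglycans. At 0 mM EPYC had mean signals of 184.1 in embryoid bodies and 5.62 in undifferentiated cells, below the median of those arrays, and like MGP it passed the filter through embryoid bodies alone. KERA stayed under the array median in every group and was not tested. VCAN neighbours HAPLN1, which encodes the link protein that locks versican onto hyaluronan. HAPLN1 had mean signals of 4519 in embryoid bodies and 206.5 in undifferentiated cells at 0 mM (4.45 ± 0.07, adjusted p = 4.71e-06 by limma).

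Profiles close to those of 3 of the genes were sought over the 8 arrays, as the smallest root mean square difference on the log2 scale. The nearest to POSTN was the noncoding transcript DNM3OS at 0.196, which was 1.10 higher on the log2 scale with ethanol in embryoid bodies. It was followed by the neural transcription factor gene POU3F3 (0.248) and by LGR5 (0.253). Nearest to LUM were GASK1B (0.234), the fibrillar collagen gene COL3A1 (0.333) and the apolipoprotein gene APOB (0.424). Nearest to FN1 were RIN2 (0.0738), EPSTI1 (0.107) and DMRTA2 (0.144). The stage step dominates these distances, and DNM3OS, POU3F3, LGR5, GASK1B and DMRTA2 had mean signals of 11.6 to 60.3 in undifferentiated cells at 0 mM, under the array median.

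Other matrix genes that work beside these proteins also differed between the stages. Counts are of genes called by limma in embryoid bodies over undifferentiated cells at 0 mM, beside 28.0% higher and 24.7% lower among all genes tested. Each count covers the genes with at least 1 array above its median in both stages, because the filter favoured a difference in the rest. For all 13052 such genes the shares were 26.7% higher and 25.3% lower, and the median change was 0.00.

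Of 12 further small leucine-rich proteoglycans 6 were tested. OGN (osteoglycin), ASPN (asporin) and EPYC passed through embryoid bodies alone. Of the other 3, FMOD (fibromodulin, 2.62 ± 0.19) rose, while PRELP at 0.00 and OPTC at 0.43 were not called. Of 13 elastic fibre and microfibril genes 9 rose and none fell, with a median of 1.03, including FBLN2 (2.49 ± 0.11), LTBP1 (1.36 ± 0.07), which stores latent TGF-beta, and FBN2 (2.77 ± 0.17), whose product is the main fibrillin of embryonic tissue.

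Of 14 matricellular genes 6 rose and 4 fell, with a median of 0.19. TNC (tenascin C) rose by 3.97 ± 0.15 and TGFBI, a relative of periostin, by 2.08 ± 0.08, whereas CCN1 (-1.41 ± 0.09) and CCN2 (-1.21 ± 0.07), targets of YAP and TEAD, fell. In the versican and hyaluronan group 7 of 12 rose and 2 fell, with a median of 0.52. HAS2, the main hyaluronan synthase of embryos, had a mean signal of 6383 in embryoid bodies and 211.3 in undifferentiated cells (4.92 ± 0.14, adjusted p = 2.02e-05 by limma), and HAPLN3 fell by 1.86.

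Enzymes that crosslink and process matrix had 8 of 15 higher and 2 lower, with a median of 0.40. LOXL1 rose by 1.60 ± 0.11 and the collagen lysyl hydroxylase PLOD3 by 1.16 ± 0.08. PCOLCE fell by 0.45, and TGM2, under the array median in embryoid bodies at 0 mM, was called lower too. Of 5 integrin genes for receptors of fibronectin and periostin 4 rose, with a median of 0.81, among them ITGA5 (1.05 ± 0.08) and ITGAV (1.01 ± 0.10). ITGA8, under the array median in undifferentiated cells, was at least 6.38-fold higher in embryoid bodies. TGF-beta ligands, receptors and targets had 8 of 13 higher and 1 lower, with a median of 1.01. TGFBR3, a coreceptor, rose by 1.31 ± 0.07 and ACTA2, the smooth muscle actin gene, by 1.33 ± 0.09.

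Markers of cell types moved alongside. Of 10 mesenchymal markers measured in both stages 6 rose and 2 fell, with a median of 1.85, and PDGFRA (4.22 ± 0.14) rose while S100A4 and TWIST2 fell by 0.63 and 1.84. The summed signal of all 16 listed mesenchymal markers was 44010 to 44490 in embryoid bodies and 11590 to 12690 in undifferentiated cells at 0 mM. VIM and CDH2 had the largest mean signals of this list in embryoid bodies at 0 mM, 17380 and 12300. ZEB2, under the array median in undifferentiated cells, was at least 10.1-fold higher in embryoid bodies. Of 12 endoderm and yolk sac markers tested, FGB, FGG, AHSG and GATA4 passed through embryoid bodies alone, and the other 8 rose, with a median of 5.12. The summed signal of the list was 44890 to 45220 in embryoid bodies and 1104 to 1250 in undifferentiated cells. Pluripotency markers had 6 of 9 lower and none higher, with a median of -0.68.

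Of 9 neural markers 7 rose and none fell, with a median of 1.40, among them PAX6 (3.69 ± 0.15). Chondrocyte and bone markers had 4 of 7 higher and 1 lower, with a median of 1.18, including the cartilage collagen gene COL2A1 (2.67 ± 0.10). Endothelial markers had none of 3 higher and 2 lower, cardiac and smooth muscle markers 1 of 5 and 1, epithelial markers 2 of 9 and 2, and housekeeping genes 2 of 9 and 1. Which of these cell types made the matrix transcripts was not tested.

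**Figure D5:**
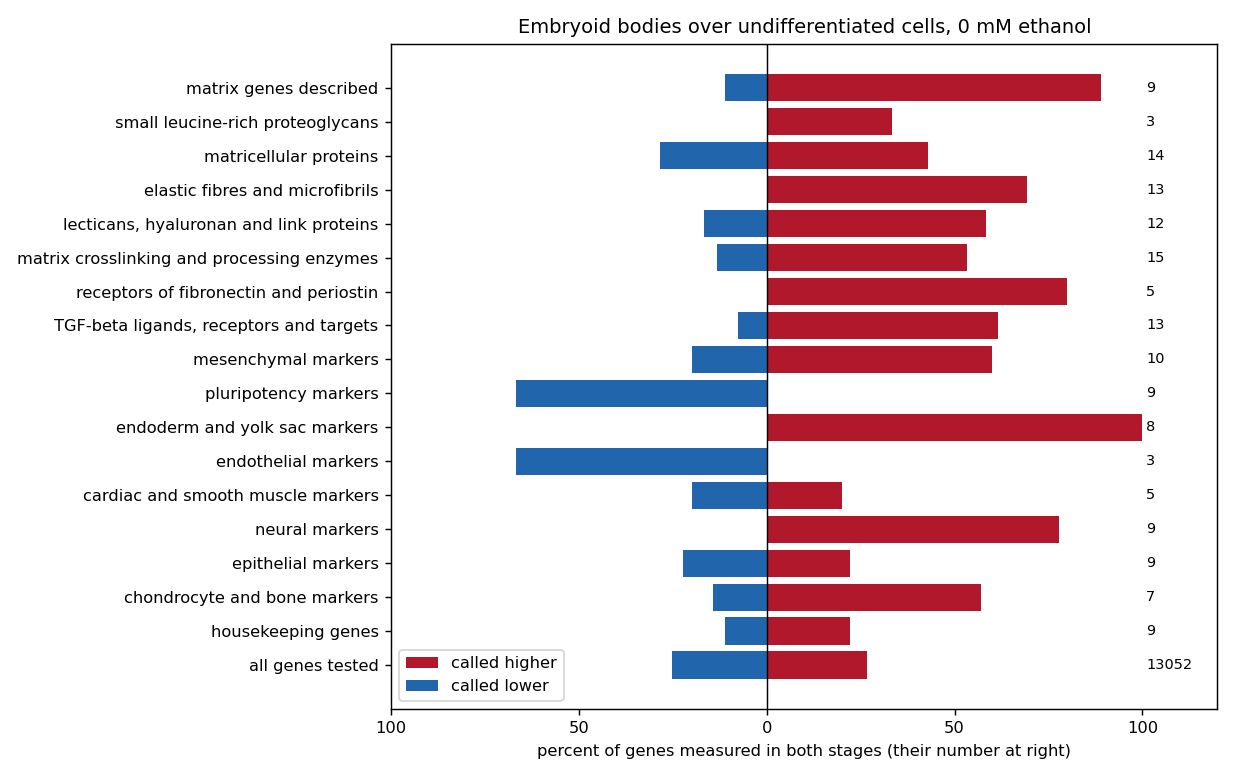
Percent of genes called higher (red, right of 0) and lower (blue, left of 0) by limma in embryoid bodies over undifferentiated cells at 0 mM ethanol, for the matrix genes described, 16 other lists and all genes. Genes with no array above its median in one of the stages are left out, and the number that remains stands at the right. Endoderm and yolk sac markers have the longest red bar (8 of 8), against 26.7% of all such genes.

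With ethanol in embryoid bodies, the lists are given by their genes with an array above its median at both doses. The other small leucine-rich proteoglycans had a median change of 0.68 with 5 of 5 positive, and mesenchymal markers 0.32 with 11 of 14 positive, beside 0.00 over all such genes. The median was 0.18 for elastic fibre genes, 0.13 for matricellular genes, 0.09 for crosslinking enzymes, 0.10 for the TGF-beta group, 0.22 for the integrin genes and 0.35 for the versican and hyaluronan group. No gene of these 8 lists was called. TGFBI was at 0.70 ± 0.08, TNC at 0.40 ± 0.14, HAPLN1 at 0.41 ± 0.07 and PDGFRA at 0.60 ± 0.14, while HAS2 was at -0.15 ± 0.14 and FMOD at 0.05 ± 0.19.

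Summed signals of the marker lists were not tested. The sum of endoderm and yolk sac markers was 57090 to 58510 in embryoid bodies with ethanol and 44890 to 45220 without, and that of mesenchymal markers 48460 to 49940 and 44010 to 44490. Pluripotency markers summed to 69540 to 72620 with ethanol and 79910 to 82320 without. AHSG (fetuin-A), a liver plasma protein, was the 1 gene of all the lists that was called with ethanol (1.61 ± 0.07, adjusted p = 0.00956 by limma). Of 12 endoderm and yolk sac markers 10 were positive with ethanol in embryoid bodies, with a median change of 0.58. FGB (1.10), FGA (1.03), FGG (0.71), AFP (0.66), APOB (0.63) and TTR (0.53) had both ethanol arrays above both others, as 29.4% of all genes did. The endoderm genes FOXA2 (-0.03), SOX17 (-0.03) and APOA1 (0.03) had overlapping arrays, and no pluripotency marker was called. The part of these sums in the matrix gene values was not tested.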

How the data were processed

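Expression was measured on 8 arrays of 54675 probe sets. The authors deposited log10 signals with 2 decimals, a step of 0.0332 on the log2 scale. Per the submitters' processing notes RMA was used, but the values run from -1.46 to 4.61 and share a trimmed mean of 500 to 500.1 on the linear scale, the form of globally scaled MAS 5 signals, so the scale is known only from the values. They were converted to log2 by a constant factor, where the written plan had assumed log2 values. Depth is not defined for arrays, and their number, 2 per group, limits the precision.

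Names came from the platform annotation (41091 probe sets name 1 gene), and 62 control sets were left out. A gene's main value was its probe set with the highest mean. The 14079 genes with at least 2 arrays above that array's median were tested in a single model of all 8 arrays (limma 3.58.1, R 4.3.3), a mean for each group and Benjamini-Hochberg adjustment over all genes. Other probe sets were fitted the same way over all probe sets that passed the filter. The genes described, and 16 lists of 201 genes (193 with a probe set, 167 tested), were chosen with earlier results of these data known. In the lists, the genes with the smallest p between stages at 0 mM and any gene called with ethanol could be named, and PCOLCE, TGM2, S100A4 and TWIST2 were named after their values were seen, as were all genes under other observations. Counts over lists leave out genes that passed only through one of the groups compared, a choice made after seeing the data. Like-lettered arrays were not paired, since their deviations correlated by only -0.026 to 0.049. On simulated data with 14079 genes, the fit for ethanol in embryoid bodies found 71.7% of those altered by 1 on the log2 scale and 14.2% at 0.5, with 4.87% of calls false. The simulated arrays had independent normal noise and no shift between arrays. The real array medians differed between groups, so these rates may not hold for the real data. Alternatives were other filters, probe set rules, normalizations, variance models and samples in the fit, a replicate block, and leaving out each array.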

Additional observations from a re-analysis of the deposited data

How the results depend on the processing

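The stage changes of the 10 genes kept their direction and their call, at both doses, under every alternative that tested the gene, though for MGP the filter favoured the call. Not tested were MGP with the filter at the 75th percentile and with the mean of all probe sets, and BGN with the most variable probe set (9 of 9 called each time). When probe sets ending in _x_at or _s_at were dropped, BGN, MGP, VCAN and THY1 had none left to test and 6 of 6 were called. Of these, only SPARC kept a set with signal above the array median in both stages. The sets left for POSTN, LUM, DCN, FN1 and FBN1 passed the filter through embryoid bodies alone, which favoured their calls. Leaving out any array gave 10 called genes.

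For ethanol in embryoid bodies the count was 0, but 3 with the filter at the 75th percentile (POSTN, LUM and FBN1), 3 with a trended and robust variance (POSTN, LUM and FBN1) and 3 with median centring (POSTN and LUM higher, THY1 lower). With a replicate block, which pairs like-lettered arrays, it was 0, as it was without each array. The log2 change of POSTN ran from 0.61 (median centring) to 1.22 (mean of all probe sets) and that of LUM from 0.66 (median centring) to 1.11. The mean of all POSTN sets includes dim ones with no array above its median. Over all genes 10 of 14079 were called, against 473 of 9053 with the 75th percentile and 959 of 14079 with the trended variance. With median centring 4233 of 14079 were called, of which 162 were higher and 4071 lower, so the 3 of 10 lie near the share of all genes. Quantile normalization gave 62 of 14078 and the replicate block 0. The causes were not tested.

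In undifferentiated cells, and for the difference of the ethanol changes, the count of the 10 genes was 0 under every alternative run. In undifferentiated cells the sign turned with the mean of all probe sets for POSTN (-0.17), BGN (0.17) and VCAN (0.06), and for FBN1 (-0.10) when sets ending in _x_at or _s_at were dropped. For POSTN and BGN this mean includes sets with no array above its median. The FBN1 set left was under the array median in undifferentiated cells. Without single arrays the log2 change ran from -0.05 to 0.35 for POSTN, -0.03 to 0.30 for LUM, -0.10 to 0.07 for BGN, -0.10 to 0.47 for FN1, -0.02 to 0.42 for FBN1 and -0.28 to 0.15 for VCAN. With 2 arrays a group, signals under the array median limit MGP, ASPN, EPYC and OGN.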

Other observations

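Of all genes tested, 10 were called with ethanol in embryoid bodies and 1 in undifferentiated cells by limma. MMP1, the interstitial collagenase, was called in both. Its mean signals were 462.4 with ethanol and 204.2 without in embryoid bodies (log2 change 1.18, adjusted p = 0.0468 by limma). In undifferentiated cells they were 12.59 with ethanol and 2.985 without, both under the array median, so no fold is given beside its adjusted p of 0.0112 by limma. In embryoid bodies DNM3OS, the transcript nearest to POSTN over the 8 arrays, had mean signals of 741.3 with ethanol and 346.7 without (log2 change 1.10, adjusted p = 0.044 by limma). LHX8, a homeobox gene, had 489.8 with ethanol and 182 without (log2 change 1.43, adjusted p = 0.049 by limma). These genes were named after their values were seen.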
